A study of Mus musculus with 12 samples.

Results

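The INK4, ARF and CIP/KIP genes encode the small proteins that hold cyclin-dependent kinases in check, and 6 of them were followed here by symbol among the 55385 genes listed for the mouse cerebellum. Cdkn2a (p16Ink4a and p19Arf), Cdkn2b (p15Ink4b), Cdkn2c (p18Ink4c) and Cdkn2d (p19Ink4d) make up the INK4 and ARF group, and Cdkn1a (p21Cip1) and Cdkn1b (p27Kip1) the CIP/KIP group. All 6 had enough counts to be tested. Cdkn2a and Cdkn2b transcripts were higher in EED-/- cerebellum, Cdkn1b transcripts were lower, and Cdkn2c, Cdkn2d and Cdkn1a did not pass the test.

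INK4 proteins bind the kinases CDK4 and CDK6 and keep them from pairing with D cyclins, so that the retinoblastoma protein stays active and holds back E2F factors. CIP/KIP proteins bind cyclin-CDK complexes and chiefly block those that contain CDK2, while Arf, read from Cdkn2a in another frame, binds MDM2 and so protects p53, whose best known target is Cdkn1a. In the developing cerebellum, p27Kip1 accumulates as granule cell precursors leave the cell cycle, and the Cdkn2a locus is a classic target of Polycomb repression in cultured fibroblasts and many other cell types.

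The samples were whole cerebella of mice of the C57BL/6 strain at postnatal day 14, with 3 libraries labelled EED-/-, a conditional knockout of Eed, and 3 WT libraries of the same age and strain. The EED protein belongs to the core of Polycomb repressive complex 2, the methyltransferase of histone H3 lysine 27, and the study asked how transcripts and chromatin marks differ without it. Which Cre line drove the deletion, which exons it removed and whether a library stands for 1 animal or a pool is not in the labels, so the p-values cover the spread between libraries, which may be technical. A further 6 samples of the series are ChIP-seq and were not analysed here.

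The libraries held 19621814 to 20366173 estimated counts of polyadenylated RNA. Eed had 11.6, 9.31 and 11.3 CPM (counts scaled to library size and by TMM) in EED-/- cerebella, against 20.1, 26.6 and 23.5 CPM in WT cerebella, without overlap and with some Eed RNA left. Its log2 fold change was −1.12 (SE 0.154, adjusted p = 0.0015). Adjusted p-values here and below are from edgeR's quasi-likelihood test, adjusted by Benjamini-Hochberg across the 18091 genes tested, and a gene is said to be called, or to have risen or fallen, where this value is under 0.05. Of all tested genes, 25.8% were called, 11.7% higher (2125 genes) and 14.1% lower (2544 genes) in EED-/- cerebella. Upper-quartile scaling in place of TMM gave 2828 higher and 1786 lower, with a median log2 fold change over all genes of 0.09, against −0.027 with TMM. Of the 6 inhibitor genes, 2 were called higher and 1 lower. The genotypes did not overlap for those 3 genes and overlapped for the other 3. Of all tested genes 43.9% did not overlap, 20.1% higher and 23.8% lower in EED-/- libraries.

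The promoter windows of the 3 genes that were called are shown because 2 of them lie side by side on chromosome 4 and rose together. Each runs 5′ to 3′ on the gene's own strand, from 250 bases before the annotated start to 50 bases from it, in RefSeq's GRCm38.p6. Capitals mark exact matches, on either strand, to the strings searched. These were the GC box GGGCGG, the CCAAT box, the E-box with the letters CACGTG, the TATA box in its form TATAAA, and the E2F-like strings TTTCCCGC, TTTGGCGC and TTTCGCGC. The first sequence is the Arf start of Cdkn2a (chr4:89294570-89294869, minus strand), the next the Ink4a start of the same gene (chr4:89282143-89282442, minus strand), then Cdkn2b (chr4:89310983-89311282, minus strand) and Cdkn1b (chr6:134920151-134920450, plus strand).
Cdkn2a, Arf start: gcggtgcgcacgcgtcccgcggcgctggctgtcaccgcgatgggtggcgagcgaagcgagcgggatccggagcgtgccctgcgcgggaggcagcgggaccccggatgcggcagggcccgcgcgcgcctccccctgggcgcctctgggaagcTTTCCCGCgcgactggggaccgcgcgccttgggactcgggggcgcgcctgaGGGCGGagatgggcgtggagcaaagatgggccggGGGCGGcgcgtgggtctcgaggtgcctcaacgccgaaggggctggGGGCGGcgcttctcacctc
Cdkn2a, Ink4a start: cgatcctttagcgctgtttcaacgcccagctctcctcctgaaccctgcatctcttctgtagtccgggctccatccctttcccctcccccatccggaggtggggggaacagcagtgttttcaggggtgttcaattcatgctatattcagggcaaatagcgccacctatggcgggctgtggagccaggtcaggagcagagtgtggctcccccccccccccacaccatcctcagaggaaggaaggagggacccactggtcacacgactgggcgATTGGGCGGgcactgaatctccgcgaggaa
Cdkn2b: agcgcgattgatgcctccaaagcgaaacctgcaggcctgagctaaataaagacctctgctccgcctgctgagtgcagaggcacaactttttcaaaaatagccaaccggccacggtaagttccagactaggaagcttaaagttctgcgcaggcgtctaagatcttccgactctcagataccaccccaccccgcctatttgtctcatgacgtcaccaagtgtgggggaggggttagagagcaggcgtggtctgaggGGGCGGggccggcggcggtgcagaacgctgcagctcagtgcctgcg
Cdkn1b: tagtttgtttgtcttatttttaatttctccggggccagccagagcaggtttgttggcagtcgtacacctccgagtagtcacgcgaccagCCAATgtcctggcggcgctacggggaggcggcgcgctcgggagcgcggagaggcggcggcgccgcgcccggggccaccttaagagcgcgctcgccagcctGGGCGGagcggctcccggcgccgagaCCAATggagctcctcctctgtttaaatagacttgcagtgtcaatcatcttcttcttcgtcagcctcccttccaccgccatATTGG

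The Arf window held 45 CpG dinucleotides, more than 98.1% of the 32851 RefSeq promoter windows of the mouse, whose median was 7. It carried 3 GC boxes, a string that 35.7% of all windows hold, and 1 TTTCCCGC, which 1.07% hold. The Ink4a window held 12 CpG and 1 GC box, whose letters run into a CCAAT match on the opposite strand. The Cdkn2b window held 18 CpG and 1 GC box, and the Cdkn1b window held 30 CpG, 1 GC box and 3 CCAAT matches, a string in 37.4% of all windows. The 3 genes that were not called had windows with 33 and 8 CpG (both starts of Cdkn2c), 22 CpG (Cdkn2d) and 2 and 23 CpG (both starts of Cdkn1a). None of the 9 windows held TATAAA, which is in 13.6% of all windows. Matching letters are a description and not evidence of a bound factor.

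Cdkn2a was close to silent in WT cerebellum and measurable in each EED-/- library. The gene (ENSMUSG00000044303.6) spans chr4:89274471-89294653 on the minus strand of GRCm38. Its counts were 70, 107 and 84 in EED-/- libraries, against 1, 1 and 0 in WT libraries. These are 3.31, 5.03 and 4.11 CPM in EED-/- libraries, against 0.0513, 0.0537 and 0 CPM in WT libraries. The genotypes were far apart, and within EED-/- the first library was lowest and the second highest. The summed counts, 261 in EED-/- and 2 in WT libraries, give a ratio of 119, with an exact 95% interval of 32.7 to 991 that covers counting error only. A count of 0 allows up to 3 counts, or 0.155 CPM, in the third WT library. The fitted log2 fold change of 6.66 (SE 0.481, adjusted p = 8.06e-05) depends on how so few WT counts are smoothed. Of all tested genes, 14 had a larger fitted log2 fold change. Cdkn2a had enough counts to be tested through its EED-/- libraries alone.

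The gene-level counts do not separate Ink4a from Arf. In GENCODE's annotation of GRCm38, transcript Cdkn2a-201 begins at the Ink4a first exon (chr4:89281986-89282192) and Cdkn2a-202 at the Arf first exon (chr4:89294334-89294653). They share 575 exonic bases, while 277 belong to the Ink4a transcript alone and 320 to the Arf transcript alone. A rise of either transcript, or of both, would give these counts.

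Cdkn2b, the INK4 gene next to Cdkn2a and a known target of TGF-beta signalling, was 2.03-fold higher. The gene (ENSMUSG00000073802.5, chr4:89306299-89311039, minus strand) had 2.23, 2.59 and 2.20 CPM in EED-/- libraries, against 1.13, 0.966 and 1.34 CPM in WT libraries. Every EED-/- library was above every WT library, on counts of 45 to 55 in EED-/- and 18 to 26 in WT libraries. The log2 fold change was 1.02 (SE 0.243, 95% interval 0.47 to 1.58, adjusted p = 0.0162). The call was lost without the first EED-/- library (adjusted p = 0.0544) and without the second EED-/- library (adjusted p = 0.0638), while the log2 fold change was 1.06 and 0.95.

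Cdkn2c, the INK4 gene whose loss promotes medulloblastoma in Ptch1 mutant mice, differed by less than the spread between libraries. It (ENSMUSG00000028551.14, chr4:109660876-109667189, minus strand) had 4.55, 5.46 and 5.04 CPM in EED-/- libraries, against 5.90, 4.56 and 4.75 CPM in WT libraries. The ranges overlapped, and the log2 fold change of −0.02 (SE 0.18, adjusted p = 0.958) had a 95% interval of −0.43 to 0.39. Its sign turned under several other scalings, which leaves it without a direction.

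Cdkn2d, an INK4 gene expressed in postmitotic neurons, was the most abundant INK4 transcript in both genotypes. It (ENSMUSG00000096472.2, chr9:21288410-21291407, minus strand) had 31.0, 30.9 and 22.3 CPM in EED-/- libraries, against 34.0, 31.6 and 29.0 CPM in WT libraries. The third EED-/- library was the lowest of all 6 and the other EED-/- libraries lay within the WT range. The log2 fold change was −0.17 (SE 0.151, 95% interval −0.51 to 0.18, adjusted p = 0.458), and it was 0.03 without that library.

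Cdkn1a, the p53 target among the inhibitors, was held in a narrow range in EED-/- libraries and a wide one in WT libraries. It (ENSMUSG00000023067.14, chr17:29090976-29100727, plus strand) had 55.3, 56.1 and 60.6 CPM in EED-/- libraries, against 98.2, 50.2 and 67.9 CPM in WT libraries. The first WT library was far above all others and the second WT library was below all EED-/- libraries. The log2 fold change was −0.33 (SE 0.218, 95% interval −0.83 to 0.17, adjusted p = 0.305). It was 0.01 without the first WT library (adjusted p = 0.979) and −0.54 without the second (adjusted p = 0.0424). The first WT library also had the lowest share of mitochondrial counts, 3.21%, against 5.22 to 8.04% in the other 5 libraries, and the part of that difference in the Cdkn1a value was not tested. A transcript annotated on the opposite strand, with 0.426 to 0.783 CPM over the 6 libraries, overlaps one start of Cdkn1a. The sources used here do not say if counting used strand, and its part in the Cdkn1a counts was not tested.

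Cdkn1b, the inhibitor that marks cell cycle exit of granule cell precursors, was 2.94-fold lower. It (ENSMUSG00000003031.14, chr6:134920401-134925513, plus strand) had 50.2, 49.0 and 57.7 CPM in EED-/- libraries, against 163.4, 155.6 and 141.7 CPM in WT libraries. The genotypes were widely apart relative to the spread within each, with means of 52.3 ± 4.74 CPM in EED-/- and 153.6 ± 11.0 CPM in WT libraries (SD, n = 3 each). The log2 fold change was −1.55 (SE 0.117, 95% interval −1.82 to −1.29, adjusted p = 9.95e-05), and 377 of all tested genes had a smaller one. In absolute terms this was the largest difference among the 6, −101.3 CPM, against 4.12 CPM for Cdkn2a. Cdkn1c (p57Kip2), the CIP/KIP gene outside the 6, was looked up after its values were seen. It had 53.7, 63.8 and 43.7 CPM in EED-/- libraries, against 19.1, 15.3 and 18.2 CPM in WT libraries, and rose 3.06-fold (log2 fold change 1.61, SE 0.164, adjusted p = 0.000381).

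**Figure D1:**
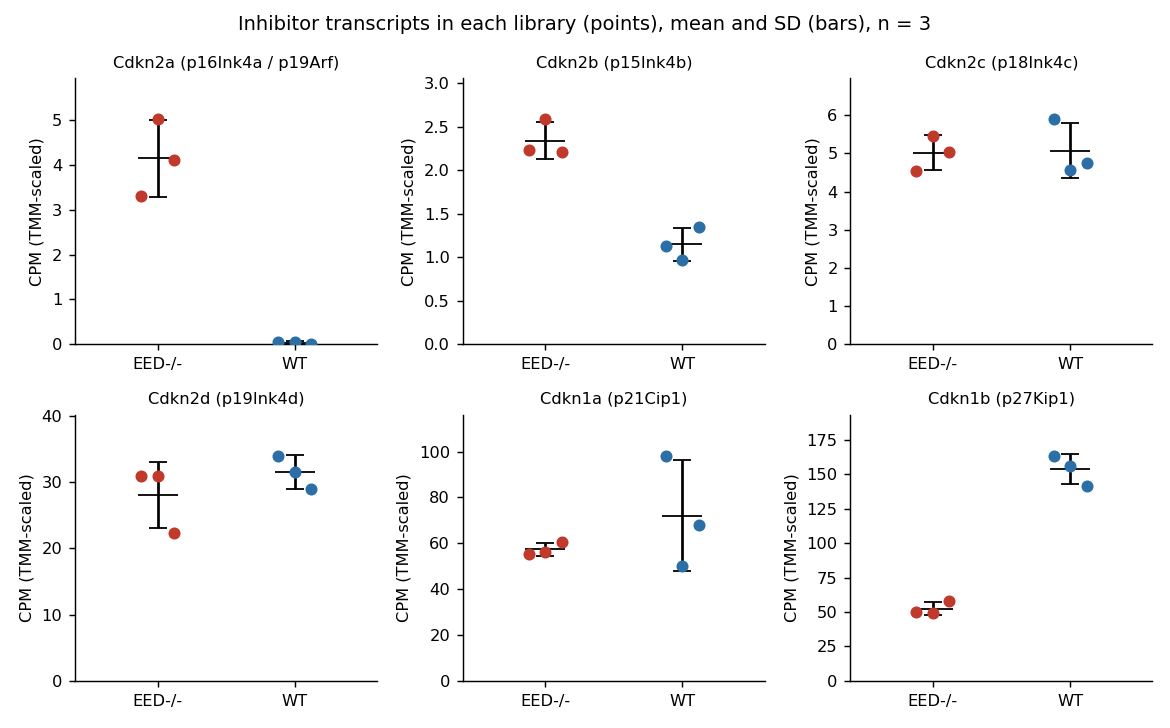
Level of each inhibitor transcript in CPM (vertical axes from 0, one scale per gene) in EED-/- libraries (red, left) and WT libraries (blue, right); points are libraries, horizontal lines means and bars SD. Cdkn2a and Cdkn2b points are higher in EED-/- and Cdkn1b points lower, without overlap, while those of Cdkn2c, Cdkn2d and Cdkn1a overlap.

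The deposited differential table of the authors gave the same directions for the 3 called genes. It covers the same comparison and libraries, so it is no independent test. In the authors' deposited table the log2 fold change was 6.92 for Cdkn2a (SE 1.09, adjusted p = 7.26e-09). In the authors' deposited table it was 1.05 for Cdkn2b (SE 0.406, adjusted p = 0.0454) and −1.53 for Cdkn1b (SE 0.134, adjusted p = 8.26e-28). Cdkn2c (0.00382), Cdkn2d (−0.146) and Cdkn1a (−0.316) had adjusted p-values above 0.05 in the authors' deposited table.

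**Figure D2:**
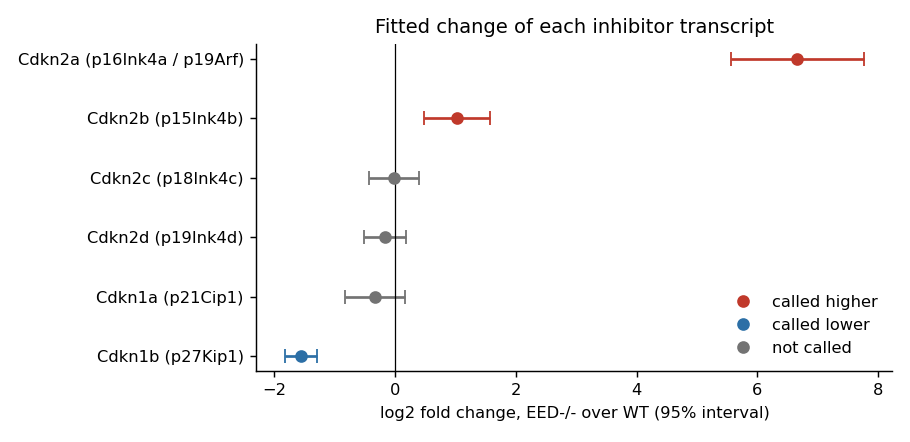
Fitted log2 fold change of EED-/- over WT (horizontal axis) for each inhibitor gene, with its 95% interval; red is called higher, blue called lower and grey not called. The intervals of Cdkn2a, Cdkn2b and Cdkn1b lie clear of 0, and those of Cdkn2c (−0.43 to 0.39), Cdkn2d (−0.51 to 0.18) and Cdkn1a (−0.83 to 0.17) cross it.

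Levels of different genes were compared per kilobase of annotated exon, a length that joins the exons of all transcripts of a gene. That length can exceed any 1 transcript. For Cdkn1a it was 3553 bases, and the longest transcript had 2080. Cdkn2c had 2686 bases, with transcripts of 1106 and 2471, and Cdkn1b 4552, with transcripts of 1757 to 4552. The order and the sums below therefore depend on which transcripts were present, which was not measured. In EED-/- libraries the order was Cdkn2d (17.8 ± 3.19 CPM per kb), Cdkn1a (16.1 ± 0.803), Cdkn1b (11.5 ± 1.04), Cdkn2a (3.54 ± 0.734), Cdkn2c (1.87 ± 0.17) and Cdkn2b (1.68 ± 0.155; all SD, n = 3). In WT libraries it was Cdkn1b (33.7 ± 2.43 CPM per kb), Cdkn1a (20.3 ± 6.84), Cdkn2d (20.03 ± 1.595), Cdkn2c (1.89 ± 0.27), Cdkn2b (0.824 ± 0.136) and Cdkn2a (0.0299 ± 0.0259). Cdkn2d and Cdkn1a overlapped in both genotypes, and so did Cdkn2c and Cdkn2b in EED-/- libraries, so their order is not resolved. The other neighbours in either order did not overlap. On these lengths Cdkn2a stood last in WT libraries and above Cdkn2c and Cdkn2b in EED-/- libraries. Cdkn1b stood first in WT libraries and below Cdkn2d and Cdkn1a in EED-/- libraries.

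Summed over the 6 genes, the level was 52.4, 54.4 and 50.8 CPM per kb in EED-/- libraries, against 88.2, 70.8 and 71.4 CPM per kb in WT libraries. Cdkn1b made up 21.9 ± 2.68% of that sum in EED-/- libraries and 44.2 ± 3.82% in WT libraries (SD, n = 3 each). Cdkn2a made up 5.4, 7.9 and 6.9% of it in EED-/- libraries, against 0.0496, 0.0646 and 0% in WT libraries. The 4 INK4 genes summed to 24.9 ± 3.44 CPM per kb in EED-/- libraries and 22.8 ± 1.77 CPM per kb in WT libraries, a sum dominated by Cdkn2d. The CIP/KIP pair, Cdkn1a and Cdkn1b, summed to 27.6 ± 1.83 CPM per kb in EED-/- libraries and 54.0 ± 8.3 CPM per kb in WT libraries. Cdkn1c, the CIP/KIP gene outside the 6, is in none of these sums. It averaged 53.7 CPM in EED-/- and 17.6 CPM in WT libraries, opposite in direction to the pair, so the sums do not describe all CIP/KIP transcripts.

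**Figure D3:**
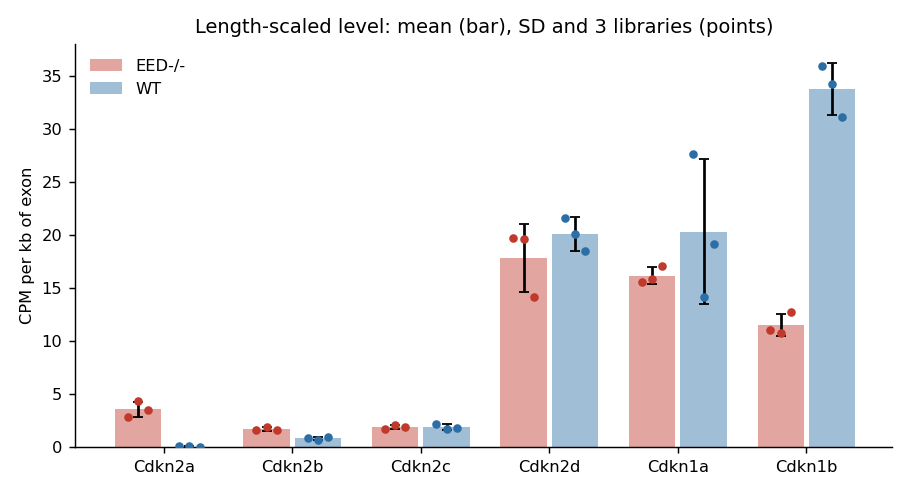
Level per kilobase of exon (vertical axis, CPM per kb) of each inhibitor gene, EED-/- (red) left of WT (blue); bars are means, error bars SD and points the 3 libraries. Cdkn1b falls below Cdkn2d and Cdkn1a in EED-/-, where Cdkn2a rises above Cdkn2b and Cdkn2c.

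In bulk RNA, fewer cells of a type and less RNA per cell cannot be told apart, so the markers of the cell types of this tissue are given beside these genes. For the counts that follow, 11.7% of all tested genes were called higher and 14.1% lower. All 15 granule neuron markers fell, and their summed level was 905 to 1197 CPM in EED-/- libraries, against 6496 to 8160 CPM in WT libraries, with none at 0. Of 10 tested granule cell progenitor markers, 4 fell and none rose (summed 283 to 308 CPM in EED-/- libraries, against 420.04 to 468.99 CPM in WT libraries), and Atoh1, their defining factor, was too low to be tested. Purkinje cell markers had 1 of 13 lower and none higher, with summed ranges that overlapped. Markers that rose with Cdkn2a and Cdkn2b included 10 of 12 for microglia (379 to 431 CPM in EED-/- libraries, against 206 to 221 CPM in WT libraries) and 9 of 10 for meningeal fibroblasts (972 to 1334 CPM in EED-/- libraries, against 444 to 535 CPM in WT libraries). They also included 6 of 8 for oligodendrocyte progenitors (964 to 1308 CPM in EED-/- libraries, against 733 to 806 CPM in WT libraries), 3 of 9 for endothelium (411 to 461 CPM in EED-/- libraries, against 347 to 359 CPM in WT libraries) and 14 of 15 for skeletal muscle. The muscle markers summed to 127.5 to 176 CPM in EED-/- libraries, against 11.9 to 13.6 CPM in WT libraries, where Chrnd was at 0. Muscle markers near the floor in WT libraries, such as Chrnd, passed the filter through their EED-/- libraries alone. Such genes could hardly be called lower, so the direction of the muscle count was partly set by the filter. Bergmann glia and astrocyte markers had 3 of 10 higher and 3 lower, myelinating oligodendrocytes 4 of 10 lower, and choroid plexus and ependyma 2 of 7 higher and 1 lower. Blood transcripts summed to 355 to 1775 CPM in EED-/- libraries, against 255 to 555 CPM in WT libraries, with overlap. The part of any of these cell types in the changes of Cdkn1b, Cdkn2a and Cdkn2b was not tested.

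The genes whose pattern over the 6 libraries was most like each called inhibitor were taken by Pearson's r of log2 CPM among 14219 tested genes. Because the genotypes are far apart, such an r mostly restates that difference and is given as a description. For Cdkn1b they were Slc22a4 (r = 0.9998, 4.02-fold lower), Khnyn (r = 0.9996, 3.36-fold lower) and Chn2 (r = 0.9992, 4.51-fold lower). For Cdkn2a they were Cat (r = 0.9981), which differed by only 1.11-fold and was not called, Tbx15 (r = 0.9981, 3.35-fold higher) and Loxl2 (r = 0.998, 1.95-fold higher). For Cdkn2b they were Steap3 (r = 0.9998, 2.64-fold higher), Bc1 (r = 0.9976, 1.66-fold higher) and Gask1a (r = 0.9974, 2.20-fold higher).

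Cdkn2a and Cdkn2b are 11646 bases apart, and the tested genes around them were higher too. Mtap, an enzyme of the methionine salvage pathway 93390 bases from Cdkn2a, had 24.8, 23.0 and 25.2 CPM in EED-/- libraries, against 10.7, 11.05 and 12.4 CPM in WT libraries. Dmrta1, a DM-domain transcription factor gene 384783 bases from Cdkn2a, had 4.36, 4.14 and 4.50 CPM in EED-/- libraries, against 2.41, 2.09 and 1.91 CPM in WT libraries. Neither gene overlapped between genotypes. The log2 fold change was 1.09 for Mtap (SE 0.123, adjusted p = 0.000613) and 1.02 for Dmrta1 (SE 0.191, adjusted p = 0.0061). These were all the tested genes within 500 kb of Cdkn2a, 3 of 3 higher counting Cdkn2b, against 11.7% of all tested genes called higher.

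Around Cdkn2c the calls were on the higher side alone, and around Cdkn2d, Cdkn1a and Cdkn1b they went in both directions. Near Cdkn2d and Cdkn1a the shares called lay near those of all tested genes (11.7% higher and 14.1% lower). Within 500 kb of Cdkn2c, 3 of 8 tested genes were higher and none lower (median log2 fold change 0.43). They were Dmrta2, a relative of Dmrta1, at 7.36-fold (adjusted p = 0.00193), Ttc39a and Ttc39aos1. Dmrta2 had 0.205 to 0.465 CPM in WT libraries and passed the filter through its EED-/- libraries alone. Such a gene could hardly be called lower, so the direction of that count was partly set by the filter. Within 500 kb of Cdkn2d, 4 of 37 were higher and 6 lower, among them Icam1, an adhesion molecule (log2 fold change 0.98), S1pr2 (0.68) and Shfl (0.49) higher and Kank2 (−1.27), Atg4d (−0.76), Yipf2 (−0.49) and Timm29 (−0.41) lower. Within 500 kb of Cdkn1a, 4 of 23 were higher and 3 lower: Cpne5 (log2 fold change 1.38), Rab44 (1.30) and Fgd2 were among those higher, and Mapk13 (−1.24), Brpf3 (−0.64) and the p38 kinase gene Mapk14 (−0.59) were lower. Of 15 tested neighbours of Cdkn1b, Emp1 was higher (log2 fold change 1.62) and Gpr19 lower (−0.54), against 25.8% of all tested genes called, and the median was −0.14.

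**Figure D4:**
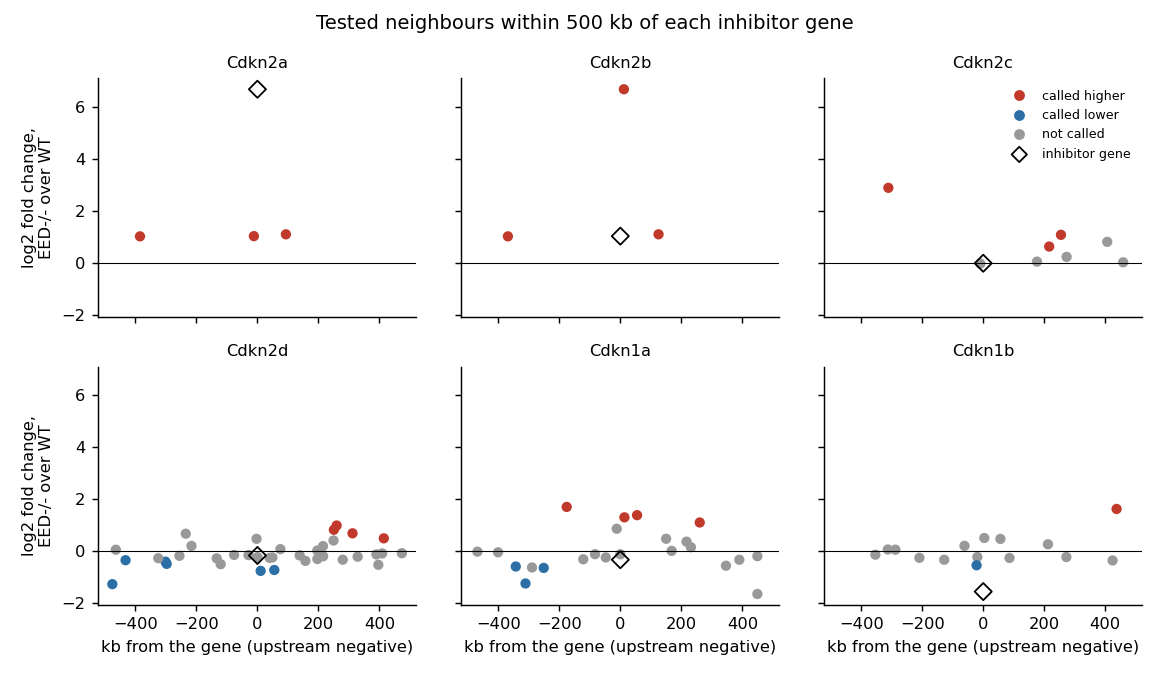
Log2 fold change of EED-/- over WT (vertical axis) of tested genes within 500 kb of each inhibitor gene against distance (horizontal axis, kb, upstream negative); the diamond is the inhibitor gene, red is called higher, blue called lower and grey not called. Near Cdkn2a and Cdkn2b all points lie above 0, and near Cdkn1b only 1 point is called in each direction.

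Of the 5 genes for D cyclins, CDK4 and CDK6, on which the INK4 proteins act, 3 rose and none fell. Over all tested genes 11.7% were called higher and 14.1% lower. The list median log2 fold change was 0.75, against −0.027 over all tested genes. Ccnd2, a D cyclin used by granule cell precursors, averaged 118.0 ± 14.9 CPM in EED-/- and 45.3 ± 2.76 CPM in WT libraries (SD, n = 3 each, 2.61-fold, adjusted p = 0.000225). Cdk6 averaged 14.3 ± 2.33 CPM in EED-/- and 6.74 ± 0.867 CPM in WT libraries (2.13-fold, adjusted p = 0.00311). Ccnd1 averaged 65.1 ± 8.70 CPM in EED-/- and 38.8 ± 2.12 CPM in WT libraries (1.68-fold, adjusted p = 0.00378). Cdk4 (log2 fold change 0.06) and Ccnd3 (0.30) were not called.

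Among the cyclins E, A and B with CDK1 and CDK2, which the CIP/KIP proteins act on or which drive mitosis, 5 of 7 tested genes rose and none fell (median log2 fold change 0.78). The share of all tested genes called higher was 11.7%. The 5 were Cdk1 (2.51-fold), Ccnb1 (2.20-fold), Ccnb2 (2.16-fold), Cdk2 (1.61-fold) and Ccna2 (log2 fold change 0.78). Without the first or the second EED-/- library, or without the third WT library, only Ccnb1 and Cdk1 were called. Of 25 proliferation genes, which include Ccnb1 and Cdk1, 11 rose and none fell (median 0.71), against 11.7% of all tested genes called higher. Top2a, the topoisomerase of dividing cells, averaged 23.2 ± 4.65 CPM in EED-/- and 9.40 ± 0.397 CPM in WT libraries (2.47-fold, adjusted p = 0.00112). Mki67 averaged 27.2 ± 4.68 CPM in EED-/- and 9.67 ± 4.42 CPM in WT libraries (log2 fold change 1.49). Without the first EED-/-, the second EED-/- or the third WT library, 7, 6 and 7 of these genes were called. The other 14 were not called, and among them Mcm7 (log2 fold change −0.37) and Cdt1 (−0.59) had their EED-/- libraries below their WT libraries. The part of cycling cells of any type in the changes of the inhibitor genes was not tested.

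Of the RB and E2F genes, 2 of 13 were higher and 3 lower (median log2 fold change −0.17), not far from the shares of all tested genes, 11.7% higher and 14.1% lower. Rbl1 (1.63-fold), which encodes the pocket protein p107, and E2f8 (1.99-fold), a repressor E2F, rose. E2f1 (1.68-fold, adjusted p = 0.0168), E2f4 (1.45-fold) and E2f3 (log2 fold change −0.42) fell, and Rb1 was not called (−0.17). None of the 5 was called without the first EED-/- library, none of the 3 lower ones was called without the third EED-/- library, and neither higher one was called without the second EED-/- library. Without any 1 WT library, 1 of the 2 higher genes was called, and without the third WT library E2f1 alone was called lower. Under upper-quartile scaling or library size alone, only E2f1 was called lower.

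Of 28 genes of the ARF to p53 arm and its targets, 9 rose and 2 fell (median log2 fold change 0.30). Over all tested genes 11.7% were called higher and 14.1% lower, with a median of −0.027. Eda2r, a p53 target and receptor of the TNF receptor family, averaged 8.15 ± 1.05 CPM in EED-/- and 0.903 ± 0.0882 CPM in WT libraries (8.96-fold, adjusted p = 5.45e-05). Pmaip1 (Noxa), a BH3-only protein, averaged 4.17 ± 0.243 CPM in EED-/- and 0.627 ± 0.188 CPM in WT libraries (6.61-fold, adjusted p = 0.000345). With 0.413 CPM in the third WT library, Pmaip1 would not have passed the filter on WT libraries alone and could hardly be called lower. Psrc1 rose 3.73-fold (adjusted p = 0.00117), while Sesn1, a stress-response target, averaged 37.2 ± 4.43 CPM in EED-/- and 74.9 ± 4.26 CPM in WT libraries (2.01-fold lower, adjusted p = 0.000847). Bbc3 (Puma) was also lower (log2 fold change −0.73). Trp53 itself (0.13), Mdm2 (−0.15), the Arf-binding Npm1 (0.52) and Cdkn1a were not called. Without the first EED-/- library 5 of the list were called higher. Bbc3 lost its call when any 1 library other than the second WT library was left out, and Sesn1 kept it.

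Among genes for the turnover of p27, p21 or cyclin E, none was higher and 2 of 12 were lower (median log2 fold change −0.20). The share lower was near the 14.1% of all tested genes called lower. Rnf123, the catalytic subunit of the KPC ligase that acts on p27 in the cytoplasm, averaged 58.8 ± 3.61 CPM in EED-/- and 112.6 ± 15.01 CPM in WT libraries (1.91-fold lower, adjusted p = 0.00141). Fbxw7, a substrate receptor for cyclin E, was 1.57-fold lower (adjusted p = 0.012), a call lost without the first EED-/-, the second EED-/- or the third WT library. Skp2, the receptor that marks p27 for degradation in the nucleus, averaged 7.77 ± 0.781 CPM in EED-/- and 9.63 ± 0.691 CPM in WT libraries and was not called. Dtl, a substrate receptor for p21, was not called (log2 fold change 0.92), but it was called higher without the third EED-/- library or the third WT library. RNA levels say nothing of p27 protein.

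Senescence-associated secretory genes, often measured with Cdkn2a, were mostly too low to test: 9 of 20 passed the filter. Of these, 2 rose and none fell (median log2 fold change 0.44), against 11.7% of all tested genes higher and 14.1% lower. Plau, a urokinase, averaged 4.24 ± 1.17 CPM in EED-/- and 1.41 ± 0.17 CPM in WT libraries (log2 fold change 1.58, adjusted p = 0.00336). Il1a averaged 0.827 ± 0.0827 CPM in EED-/- and 0.208 ± 0.0488 CPM in WT libraries (3.88-fold, adjusted p = 0.00577). It passed the filter through its EED-/- libraries alone. Such a gene could hardly be called lower, so the direction of that count was partly set by the filter. Il6 was not tested, with at most 0.155 CPM in any library.

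**Figure D5:**
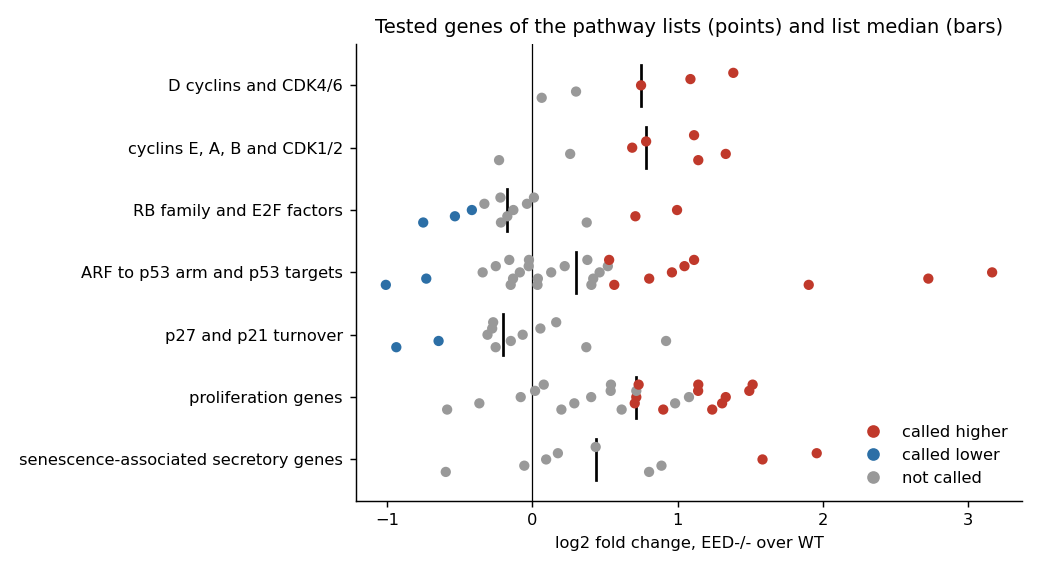
Log2 fold change of EED-/- over WT (horizontal axis) of every tested gene in the pathway lists (rows); points are genes, red called higher, blue called lower and grey not called, and black bars list medians. The D cyclin, cyclin E/A/B, proliferation and secretory lists have calls on the higher side alone, the RB and ARF to p53 lists on both sides, and the turnover list on the lower side alone.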

How the data were processed

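Polyadenylated RNA of 3 EED-/- and 3 WT cerebella was analysed from 2 series tables, grouped by the genotype labels. The authors deposited estimated counts per gene, not scaled between libraries: 22.5% to 23.6% of values per library were not whole to within 1e-06. The authors' deposited table of differences holds log2 fold changes, p-values and a Wald score per gene and, per the file headers, has the columns of DESeq2 output; the score was not used. Per the submitters' processing notes the tools included Salmon 1.1.0, Trimmomatic 0.36 and DESeq2 1.26.0. Strand use is not stated in the sources used here.

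Estimated counts were rounded, filtered with filterByExpr (18091 of 35196 genes with a count kept), scaled by TMM and tested two-sided with edgeR 4.0.16 in R 4.3.3, genotype being the only term. A level of 1 CPM is about 20 counts. No replicate pair agreed within sampling noise (chi-square over its degrees of freedom, 8.36 to 55.2). Positions and exon lengths came from GENCODE M21 (GRCm38) and promoters from RefSeq (all 6 genes matched). The procedure was tested on simulated data with far fewer changed genes than were called here. That simulation does not show how the choice of scaling moves the calls in these libraries.

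The members, gene lists and rules were chosen with earlier results of these data known. Named genes are Eed, the 6 inhibitors, up to 4 called members per list with the smallest adjusted p, called neighbours within 500 kb with a gene symbol (1 is not reported here), and the 3 genes most correlated with each called inhibitor (prior count 2, genes reaching a mean of 1 CPM in either genotype). Other names, chosen after values were seen, are Cdkn1c, Cdk4, Ccnd3, Ccna2, Mki67, Mcm7, Cdt1, E2f3, Rb1, Bbc3, Trp53, Mdm2, Npm1, Skp2, Il6, Dtl, Plaur, Ccl2, Mmp12, Gdf15, Igfbp3, Atoh1 and Chrnd. Alternatives were RLE, upper-quartile and library-size scaling, other filters, DESeq2 1.42.0, limma-voom 3.58.1, a replicate block and leaving out each library.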

Additional observations from a re-analysis of the deposited data

How the results depend on the processing

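Cdkn2a (log2 fold change 6.15 to 7.04, adjusted p at most 0.000854) and Cdkn1b (−1.61 to −1.44, adjusted p at most 0.00194) kept their calls under all 14 alternatives, as did the 3 higher D cyclin and CDK4/6 genes. Same-numbered libraries showed no shared deviation (r = 0.0276, −0.233 and −0.00125), and other pairs gave −0.188 to 0.198. With 3 libraries per genotype these values cannot exclude that the numbers pair the libraries. With a replicate block Cdkn2b had a log2 fold change of 1.03 (adjusted p = 0.0523), leaving 1 inhibitor gene higher, and the block left 0 RB and E2F genes higher and 1 lower and 5 genes of the ARF to p53 arm higher. Cdkn2c turned to 0.01 with RLE factors, without a filter and with a filter of 1 CPM, to 0.10 with upper-quartile scaling, to 0.08 with library size alone and to 0.00 with DESeq2. Upper-quartile scaling and library size alone each left 1 RB and E2F gene and 1 gene of the p53 arm lower. Those scalings, no filter, the 1 CPM filter and limma-voom each called 1 turnover gene higher, Dtl. Among secretory genes, no filter gave 5 higher (with Ccl2, Mmp12 and Gdf15) and 1 lower (Igfbp3), the 1 CPM filter gave 1 higher, since Il1a was no longer tested, and DESeq2 gave 1 lower. Leaving out each library in turn, Cdkn2b ranged from 0.91 to 1.15, Cdkn2c from −0.09 to 0.16, Cdkn2d from −0.24 to 0.03 and Cdkn1a from −0.54 to 0.01. Over the same fits 1 to 2 inhibitor genes were higher and 1 to 2 lower, 2 to 5 genes of cyclins E, A and B with CDK1 and CDK2 were higher, and 0 to 2 RB and E2F genes were higher and 0 to 2 lower. The p53 arm had 5 to 10 higher and 1 to 2 lower, turnover 0 to 1 higher and 1 to 2 lower, proliferation 6 to 14 higher, and secretory genes 2 to 3 higher and 0 to 1 lower. Over all tested genes these fits called 1205 to 2176 higher and 1335 to 2476 lower, against 2125 and 2544 with all libraries. Except where a filter or fewer libraries made the change, the cause was not tested. Under 1 CPM, values rest on fewer than 20 counts.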
